A study of Mus musculus with 10 samples.

Results

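RNA levels were followed in 4 libraries of a mouse leukaemia line that carried no dasatinib, in the order parental, DMSO 1x and DMSO 16x. These are 4 of the 10 libraries of the series. They were picked by their treatment labels, with earlier results of these data known. The line is a murine Ph+ acute lymphoblastic leukaemia (ALL) that contains BCR-ABL1 p185, the constitutively active kinase fusion found in Ph+ ALL. The parental group (2 libraries, labelled replicate A and replicate B) had no treatment. The DMSO (1x) and DMSO (16x) groups, with 1 library each, received the solvent and carry the same 1x and 16x marks as the dasatinib IC90 steps of the selected cells. The other 6 libraries (3 of dasatinib IC90 1x and 3 of dasatinib IC90 16x) entered no comparison. They served to estimate the spread between libraries, and they also entered the filter on low counts and the scaling.

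DMSO is the solvent in which kinase inhibitors are delivered, so a DMSO-carried line serves as the drug-free control for a selected line. A leukaemia driven by BCR-ABL1 p185 resembles a B-cell precursor held at an early stage: it expresses Pax5 and the surrogate light chain, and depends on the fusion kinase in place of normal cytokine and pre-B receptor signals. The labels do not give how long or for how many passages either DMSO line was carried, nor whether the DMSO 16x line descended from the DMSO 1x line. With 1 line in each DMSO group, time in culture, the DMSO exposure and chance differences between lines cannot be told apart. The labels leave unsaid whether the parental replicates were grown apart, so their scatter may be technical. The p-values of the main fit rest on the scatter within the parental pair and within the dasatinib groups. No scatter between DMSO cultures enters it.

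The deposited table gives read counts for 29955 genes, of which 12993 passed the filter on low counts and were tested. Total counts lay between 29049760 and 45813092 over all 10 libraries. Of the drug-free ones, parental A had 29049760, parental B 41349084, DMSO 1x 36439125 and DMSO 16x 37160252. Levels are given as CPM, a gene's counts relative to the scaled total of its library, which is not corrected for gene length. B-lineage precursor markers summed to 3020 to 3180 CPM in the 4 libraries, with 9 of 10 above 1 CPM in each; Ebf1, a B-lineage transcription factor, lay at 0.137 to 0.717 CPM. Markers of T cells summed to 1.15 to 1.85 CPM (3 of 6 at 0 in all 4 libraries), of myeloid cells to 3.78 to 5.99 CPM (1 of 6 at 0), and of fibroblasts and stroma to 0 to 0.0681 CPM (4 of 6 at 0). Erythroid markers summed to 5.65 and 5.24 CPM in the parental libraries, 12.2 in DMSO 1x and 35.5 in DMSO 16x, most of it from the globin gene Hbb-b1. Mouse Abl1, the kinase gene of the fusion, stood at 202 and 198 CPM in the parental libraries, 197 in DMSO 1x and 177 in DMSO 16x (adjusted p = 0.773 for DMSO 1x and 0.00602 for DMSO 16x). The table does not separate reads of the fusion from those of normal Abl1.

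DMSO 1x differed from the parental line in 787 genes at an adjusted p under 0.05 (6.06% of those tested), with 427 higher (3.29%) and 360 lower (2.77%). DMSO 16x differed from it in 3912 genes (30.1%), with 1900 higher (14.6%) and 2012 lower (15.5%). Differences of at least 2-fold made up 152 of the first set (139 higher, 13 lower) and 1068 of the second (602 higher, 466 lower). Between the DMSO lines 1173 genes were called (9.03%), 293 higher (2.26%) and 880 lower (6.77%) in DMSO 16x. That balance moved with the libraries used for the spread: the 4 drug-free libraries alone gave 2135 higher and 2161 lower, and the higher count ran from 178 (without either parental library) to 594 (without dasatinib 16x replicate A). Likewise, the DMSO 16x calls against parental were 3553 higher and 3298 lower with the 4 drug-free libraries alone. Among the drug-free libraries the parental ones were by far the closest pair, with a chi-square per degree of freedom between their counts of 1.97. It was 19.8 and 27.2 for DMSO 1x with either parental library, and 32.7 for the DMSO lines with each other. For DMSO 16x with either parental library it was 73.1 and 88.8. Pairs of replicates within the dasatinib groups, which also set the spread, lay between 3.28 and 18.1. The DMSO 1x calls leaned on having both parental libraries, since 166 were made without parental A and 120 without parental B, against 2804 (1275 higher, 1529 lower) and 2650 (1195 higher, 1455 lower) for DMSO 16x. The 2 DMSO libraries were also tested as replicates of 1 group against the 2 parental libraries. This called no gene with edgeR's quasi-likelihood test (smallest adjusted p = 0.0911, 3051 genes at an unadjusted p under 0.05), while DESeq2 called 1049. Genes that differ between the DMSO lines have a large spread within such a group. The lack of calls therefore cannot decide whether the lines share differences from parental.

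Whole chromosomes differed as well. Genes of chromosomes 5 and 18 were lower in both DMSO lines, along their entire length, and further in DMSO 16x than in DMSO 1x. Over the 768 tested genes of chromosome 5 the median log2 difference from parental was -0.168 in DMSO 1x and -0.466 in DMSO 16x, which is 0.89 and 0.724 times the parental level. Over the 316 genes of chromosome 18 it was -0.179 and -0.52, or 0.883 and 0.697 times. The median of every other autosome and of the X chromosome lay between -0.008 and 0.087 in DMSO 16x. Between the parental libraries, no chromosome's median differed by more than 0.012.

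**Figure D1:**
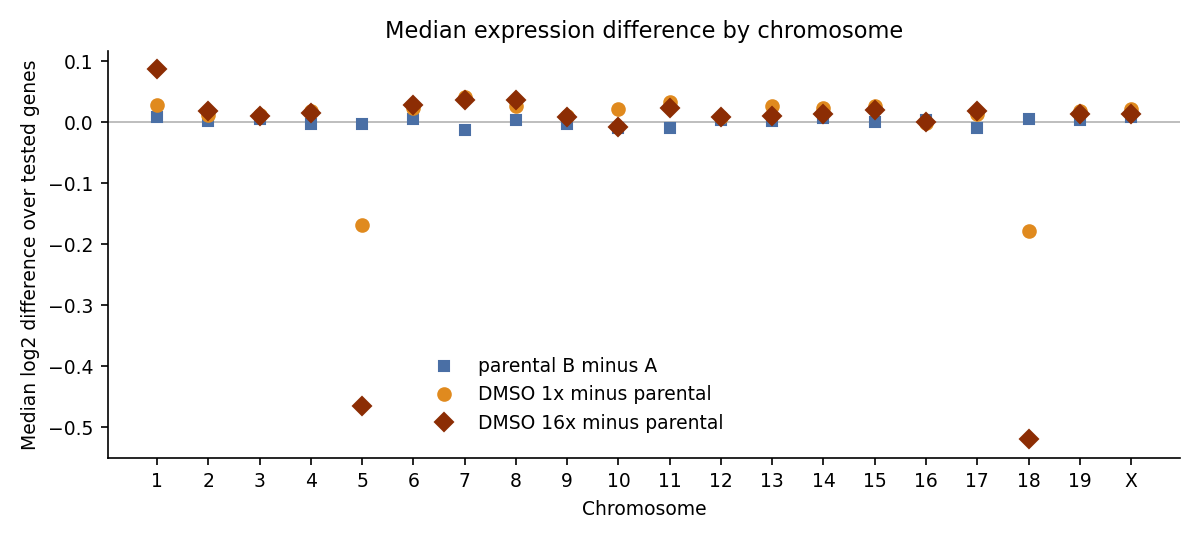
Median log2 difference over the tested genes of each chromosome, for parental B minus A (squares), DMSO 1x minus parental (circles) and DMSO 16x minus parental (diamonds), on a linear axis. Chromosomes 5 and 18 stand at -0.168 and -0.179 in DMSO 1x and at -0.466 and -0.52 in DMSO 16x, and the others stay near 0.

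Summed over the chromosome, expression from chromosome 5 was 87300 and 86920 CPM in the parental libraries, 78850 in DMSO 1x and 66380 in DMSO 16x. Chromosome 18 summed to 33380 and 33280, 29990 and 24030 CPM. DMSO 1x thus held 90.5% and 90% of the parental sum of the 2 chromosomes, and DMSO 16x 76.2% and 72.1%. On chromosome 5, 67.2% of the genes were called lower in DMSO 16x and 4.3% higher, and on chromosome 18 the shares were 67.1% and 4.11%. For the 10785 genes placed on the other chromosomes they were 11.1% lower and 16.8% higher. In DMSO 1x the called lower shares were 19.4% and 15.8%, against 1.34% elsewhere. Those DMSO 1x calls, 149 and 50 genes, fell to 30 and 3 without parental A, to 21 and 1 without parental B, and to 25 and 1 with the parental libraries summed, whereas the DMSO 16x calls, 516 and 212 genes, were 467 and 189, 459 and 184, and 468 and 187. These 2 chromosomes held 728 of the 2012 genes called lower in DMSO 16x, and leaving their genes out of the fit gave 467 calls in DMSO 1x (328 higher, 139 lower) and 589 between the DMSO lines (201 higher, 388 lower).

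The difference ran along the whole of both chromosomes. In running windows of 25 neighbouring genes of at least 5 CPM, every one of the 568 windows of chromosome 5 had a DMSO 16x median between -0.642 and -0.292, and every one of the 201 windows of chromosome 18 lay between -0.604 and -0.35. In DMSO 1x the same windows ran from -0.321 to -0.081 and from -0.219 to -0.118. The windows of all other chromosomes ranged from -0.199 to 0.245 in DMSO 16x. The upper end came from chromosome 1, where 250 of 498 windows (50.2%) exceeded 0.1, the first of them being window 130 in gene order, which starts at Cyp20a1; the highest spans Ly9 to Exo1. Over the whole of chromosome 1 the median was 0.028 in DMSO 1x and 0.087 in DMSO 16x, with 26.1% of its 693 genes called higher in DMSO 16x. In bulk RNA a smaller share of cells at the parental level and less RNA in every cell cannot be told apart, and DNA was not analysed here.

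**Figure D2:**
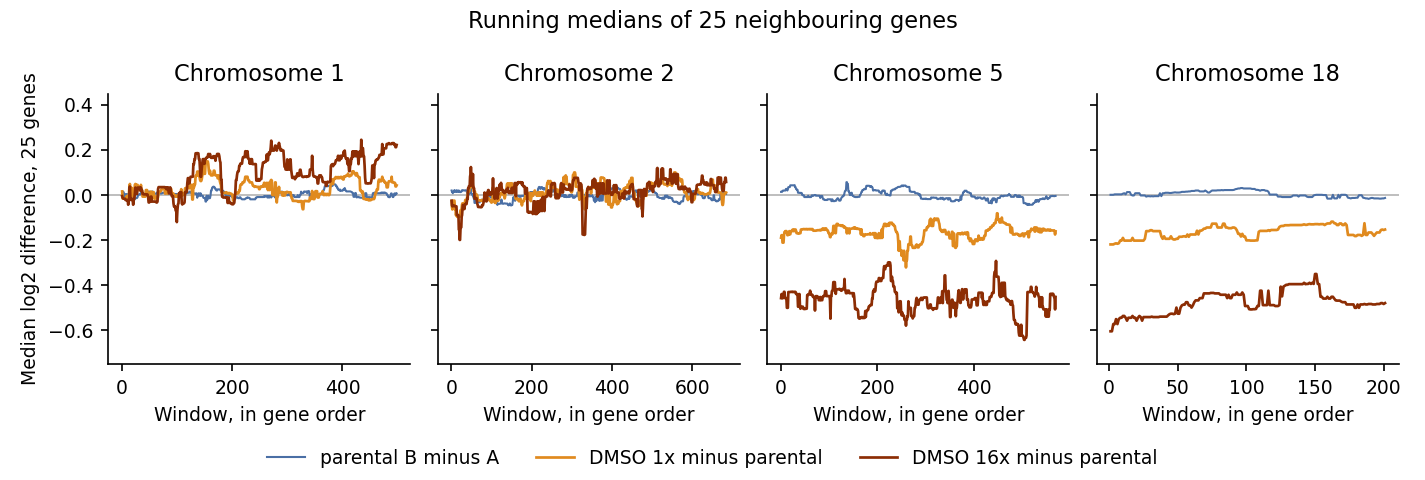
Running medians of the log2 difference over 25 neighbouring genes, in gene order along chromosomes 1, 2, 5 and 18, for parental B minus A, DMSO 1x minus parental and DMSO 16x minus parental. Every window of chromosomes 5 and 18 lies below 0 in both DMSO lines, and chromosome 1 rises above 0.1 in 250 of 498 windows in DMSO 16x.

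Abundant housekeeping genes were among those lower on these chromosomes in DMSO 16x. Hmgb1, a DNA-bending chromatin protein of chromosome 5, was at 1860 and 1870 CPM in the parental libraries, 1670 in DMSO 1x and 1370 in DMSO 16x (log2 -0.44 ± 0.04 SE for DMSO 16x, adjusted p = 9.75e-06). Hspa9, the mitochondrial Hsp70 of chromosome 18, was at 1420 in both parental libraries, 1250 in DMSO 1x and 943 in DMSO 16x (log2 -0.59 ± 0.06 SE, adjusted p = 1.08e-05). Neither gene's DMSO 1x level passed the test (adjusted p = 0.0532 and 0.0846), though each lay below both parental libraries.

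Some genes of these chromosomes went further, or the other way. Lat2, an adaptor of immune receptor signalling on chromosome 5, was at 5.55 CPM in both parental libraries, 18.4 in DMSO 1x and 46.6 in DMSO 16x (log2 3.07 ± 0.11 SE, adjusted p = 1.5e-09). Ncf1, a subunit of the phagocyte oxidase also on chromosome 5, went from 5.76 and 4.69 to 16.1 and 36.7 CPM (adjusted p = 0.0822 for DMSO 1x and 0.00277 for DMSO 16x). In the other direction, Gnai1, an inhibitory G protein subunit on chromosome 5, went from 12.7 and 13.0 CPM to 6.56 in DMSO 1x and 0.321 in DMSO 16x, which fell by 5.31 ± 0.46 SE on the log2 scale (adjusted p = 4.25e-06). Gfi1, a transcriptional repressor in haematopoiesis, had 6.64 and 6.36 CPM in the parental libraries, 3.88 in DMSO 1x and 0.589 in DMSO 16x (adjusted p = 4.49e-05 for DMSO 16x). In all, 33 genes of chromosome 5 and 13 of chromosome 18 were called higher in DMSO 16x.

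Away from these chromosomes, some genes with little RNA in the parental line were higher in the DMSO lines. The homeobox genes of the HoxB cluster on chromosome 11, which pattern the embryo and are active in early blood progenitors, stood out. Hoxb8 was at 0.852 and 0.694 CPM in the parental libraries, 10.8 in DMSO 1x and 28.8 in DMSO 16x. Its log2 change was 3.81 ± 0.24 SE in DMSO 1x (adjusted p = 0.000142) and 5.23 ± 0.24 SE in DMSO 16x (adjusted p = 1.16e-06). Hoxb7 and Hoxb6 ran alongside, from 0.238 and 0.335 CPM to 3.85 and 10.6 for Hoxb7, and from 0.443 and 0.43 CPM to 4.05 and 13.3 for Hoxb6. All 7 tested HoxB genes (Hoxb3, Hoxb4, Hoxb5, Hoxb6, Hoxb7, Hoxb8 and Hoxb13) were called higher in DMSO 16x, against 14.6% of all tested genes. The 2 tested HoxC genes were called higher too, at levels under 1 CPM. Hoxb13, Hoxc4 and Hoxc9 had 0 and 1 counts in the parental libraries, 7, 3 and 2 in DMSO 1x, and 17, 12 and 23 in DMSO 16x. Among the drug-free libraries they could pass the filter on low counts only through DMSO 16x, so their calls add no support. In DMSO 1x, Hoxb5 to Hoxb8 were called, and Hoxb3, Hoxb4 and Hoxb13 were not (adjusted p = 0.081, 0.0911 and 0.202). Hoxb3 to Hoxb5 and Hoxb13 were looked up after Hoxb6 to Hoxb8 had been seen. Under DESeq2 the calls of Hoxb3, Hoxb5 and Hoxb13 in DMSO 16x were lost (adjusted p = 0.505, 0.454 and 0.28), and that of Hoxb13 also without parental A (0.0955), without parental B (0.0782) and with the parental libraries summed (0.0555). The DMSO 1x calls of Hoxb5 and Hoxb6 were lost without parental A (0.145 and 0.0579) or parental B (0.0951 and 0.0764).

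Other genes with large gains had unlike functions. Fes, a non-receptor tyrosine kinase of the blood lineages, went from 2.38 and 2.1 CPM to 15 in DMSO 1x (adjusted p = 1.45e-05) and 36.1 in DMSO 16x (adjusted p = 2.02e-08). Fstl1, a secreted glycoprotein, went from 6.64 and 6.65 to 43.6 and 99.9 CPM, and Smoc1, another secreted matrix protein, from 3.88 and 4.14 to 21.8 and 61.5 CPM. Cd28, known as the co-stimulatory receptor of T cells, went from 5.48 and 5.52 to 13.7 and 28.3 CPM, while the T-cell markers stayed at 1.85 CPM or below in sum. Each of these 4 genes was called in both DMSO lines, with no overlap with the parental libraries. Hbb-b1, adult beta-globin, was at 4.39 and 4.04 CPM, then 11.2 and 34.4 CPM; its DMSO 1x call (adjusted p = 0.026) was lost without parental A (0.117) or parental B (0.172).

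**Figure D3:**
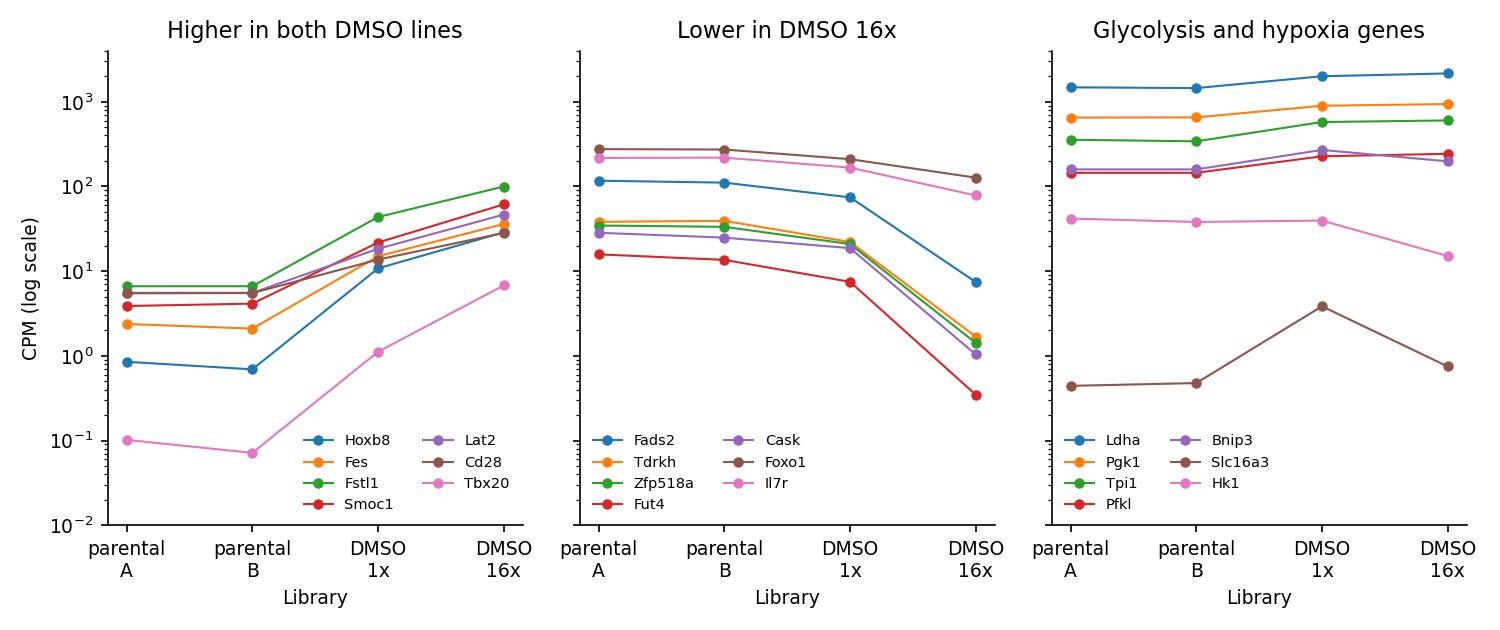
CPM on a log axis for 7 genes each that were higher in the DMSO lines, lower in DMSO 16x, or in the glycolysis and hypoxia list; each point is 1 library and the lines only join points of a gene. The parental points lie level, the first panel climbs at each step, the second drops most on the log scale at the last step, and most genes of the third step up once, at DMSO 1x.

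The largest losses were mostly modest in DMSO 1x and steep in DMSO 16x on the log scale. Of the 2012 genes called lower in DMSO 16x, 466 were at least 2-fold lower. Fads2, the delta-6 desaturase of polyunsaturated fatty acid synthesis, had 117 and 111 CPM in the parental libraries, 74.4 in DMSO 1x and 7.44 in DMSO 16x. Its log2 change was -0.61 ± 0.06 SE in DMSO 1x (adjusted p = 0.000165) and -3.93 ± 0.08 SE in DMSO 16x (adjusted p = 3.21e-11). Tdrkh, a Tudor-domain protein of the piRNA pathway, went from 38.2 and 39.3 to 22.1 and 1.69 CPM, and Zfp518a, a zinc finger gene, from 34.6 and 33.4 to 20.9 and 1.42 CPM. Fut4, a fucosyltransferase that makes the Lewis x antigen, went from 15.8 and 13.6 to 7.49 and 0.348 CPM. All 4 were called lower in both DMSO lines, under every left-out library and every other tool tried.

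Gng12, a G protein gamma subunit, had 370 and 492 counts (12.6 and 11.8 CPM) in the parental libraries, 184 counts (5.03 CPM) in DMSO 1x and none in DMSO 16x. Taking 3 counts as the floor of the DMSO 16x library, it was at least 151-fold lower there than in the parental line and at least 62.6-fold lower than in DMSO 1x. Phlda3, an inhibitor of AKT that is induced by p53, had 5.22 CPM in DMSO 1x against 6.1 and 5.76 in the parental libraries, and had 3 counts (0.0803 CPM) in DMSO 16x. The ratio of DMSO 16x to parental was 0.0136, with an exact 95% counting interval of 0.0028 to 0.04. Tbx20, a T-box transcription factor best known in the heart, went the opposite way, with 3 counts in each parental library (0.102 and 0.0717 CPM), 41 (1.12 CPM) in DMSO 1x and 254 (6.8 CPM) in DMSO 16x. Such intervals and floors cover counting error only.

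Altogether 50 genes had at most 0.1 CPM in 1 of the 3 drug-free groups and at least 1 CPM in another, 29 of them with more RNA in DMSO 16x than in the parental line and 21 with less. The stretch of 200 bases before the annotated start is shown for 3 of them (Tbx20, Gng12 and Phlda3) and for Fads2, which is not among the 50 and had the steep loss described above, from the RefSeq table of GRCm38.p6, 5′ to 3′ on the gene's strand, with CG dinucleotides in capitals because they are the sites of DNA methylation at promoters. The stretch of Tbx20 is chr9:24774304-24774503 (minus strand), of Gng12 chr6:66896197-66896396 (plus strand), of Phlda3 chr1:135765885-135766084 (plus strand) and of Fads2 chr19:10101504-10101703 (minus strand). The 4 were picked after their values were seen.
Tbx20: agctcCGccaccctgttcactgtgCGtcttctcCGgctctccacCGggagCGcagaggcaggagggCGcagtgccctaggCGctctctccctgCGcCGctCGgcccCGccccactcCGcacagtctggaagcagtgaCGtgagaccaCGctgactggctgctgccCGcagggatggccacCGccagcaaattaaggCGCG
Gng12: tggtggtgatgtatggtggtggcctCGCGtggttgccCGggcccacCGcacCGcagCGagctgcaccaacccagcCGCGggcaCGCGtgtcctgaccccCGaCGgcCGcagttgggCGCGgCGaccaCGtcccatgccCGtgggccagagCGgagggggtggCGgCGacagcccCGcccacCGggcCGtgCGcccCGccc
Phlda3: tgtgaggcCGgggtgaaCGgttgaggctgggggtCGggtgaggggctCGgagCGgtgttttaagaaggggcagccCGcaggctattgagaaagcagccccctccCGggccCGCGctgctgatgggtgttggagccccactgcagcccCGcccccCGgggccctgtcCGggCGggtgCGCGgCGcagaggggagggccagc
Fads2: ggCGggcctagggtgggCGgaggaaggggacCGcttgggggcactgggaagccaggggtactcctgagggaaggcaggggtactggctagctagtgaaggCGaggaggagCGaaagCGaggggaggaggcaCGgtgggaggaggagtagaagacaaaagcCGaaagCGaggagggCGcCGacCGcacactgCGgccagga
These stretches hold 18, 26, 16 and 13 CG dinucleotides. In the full RefSeq windows of 300 bases (250 before the start and 50 after), the median was 11 CG over the 23 windows of 21 genes with more RNA in DMSO 16x, 17 over the 23 windows of 14 genes with less, and 20 over all 10633 windows of 8324 tested genes. The quartiles overlapped widely (3.5 to 23.5, 7 to 29.5 and 11 to 29), and with 0.2 and 2 CPM as the limits the first median was 18. Methylation was not analysed here.

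The genes with the steepest changes in DMSO 16x had DMSO 1x levels between those of the parental libraries and DMSO 16x. Of the genes called at least 8-fold lower in DMSO 16x (51 genes of at least 5 CPM in the parental line) and at least 8-fold higher (75 genes of at least 5 CPM in DMSO 16x), all had a DMSO 1x level outside both parental libraries and short of DMSO 16x. Over all 12993 tested genes, 3342 likewise rose at each step from both parental libraries and 3193 fell. Of the 51 genes 17 were called in DMSO 1x, and of the 75 genes 59. The position of these sets was narrow. Measured in CPM, the difference of DMSO 1x from the parental mean was a median 40.7% of that of DMSO 16x for the 51 genes (quartiles 32.7 and 46.3) and 34% for the 75 genes (quartiles 29.1 and 37.3). Both differences share the parental libraries and the genes were chosen by the DMSO 16x difference, so these shares are a description of position and carry no test.

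Other sets with 2-fold changes, and the losses on chromosomes 5 and 18, had medians close to these. Among the 298 genes called at least 2-fold higher in DMSO 16x with at least 5 CPM in either group, the median share present in DMSO 1x was 36.3% (quartiles 29.9 and 42.5), and 79.2% of them lay between 25% and 50%. Among the 221 genes called at least 2-fold lower it was 38.6% (quartiles 31 and 45.1). Without genes of chromosomes 5 and 18 the medians were 36.2% for the higher set (271 genes) and 38.1% for the lower set (170 genes). Genes called lower on chromosome 5 (492 of at least 5 CPM) had a median of 40.2% and those on chromosome 18 (195) one of 36.3%. The chromosome sums gave 39.8% and 35.9%. Smaller gains were spread more widely and lay further along: the 1287 genes called higher by less than 2-fold had a median of 47.6% (quartiles 33.4 and 62.1), with 39.5% of them between 25% and 50%, and the 33 ribosomal protein genes called higher had one of 58.9%. The 847 genes called lower by less than 2-fold on other chromosomes had a median of 36.9% (quartiles 21.2 and 56.4). With the DMSO 1x difference taken from parental A and the DMSO 16x difference from parental B, or the reverse, the medians of the 2-fold sets stayed between 35.8% and 38.9%.

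On the log scale the same values look unlike for gains and losses. A joint test over the parental, DMSO 1x and DMSO 16x groups called 3199 genes (24.6%), which were sorted by steps of at least 2-fold. The genes that moved at both steps in 1 direction were mostly gains (200 up, 34 down), while those that moved at the last step alone were mostly losses (47 up, 220 down), and 120 moved at the first step alone (102 up, 18 down). The remaining genes were 2571 with no 2-fold step and 7 that moved at least 2-fold in opposite directions at the 2 steps. Fes and Fads2 show how a common position in CPM gives these classes: their DMSO 1x shares were 37.8% and 37%, yet Fes made the larger log2 step at DMSO 1x (2.75, then 1.26) and Fads2 at DMSO 16x (-0.61, then -3.32).

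**Figure D4:**
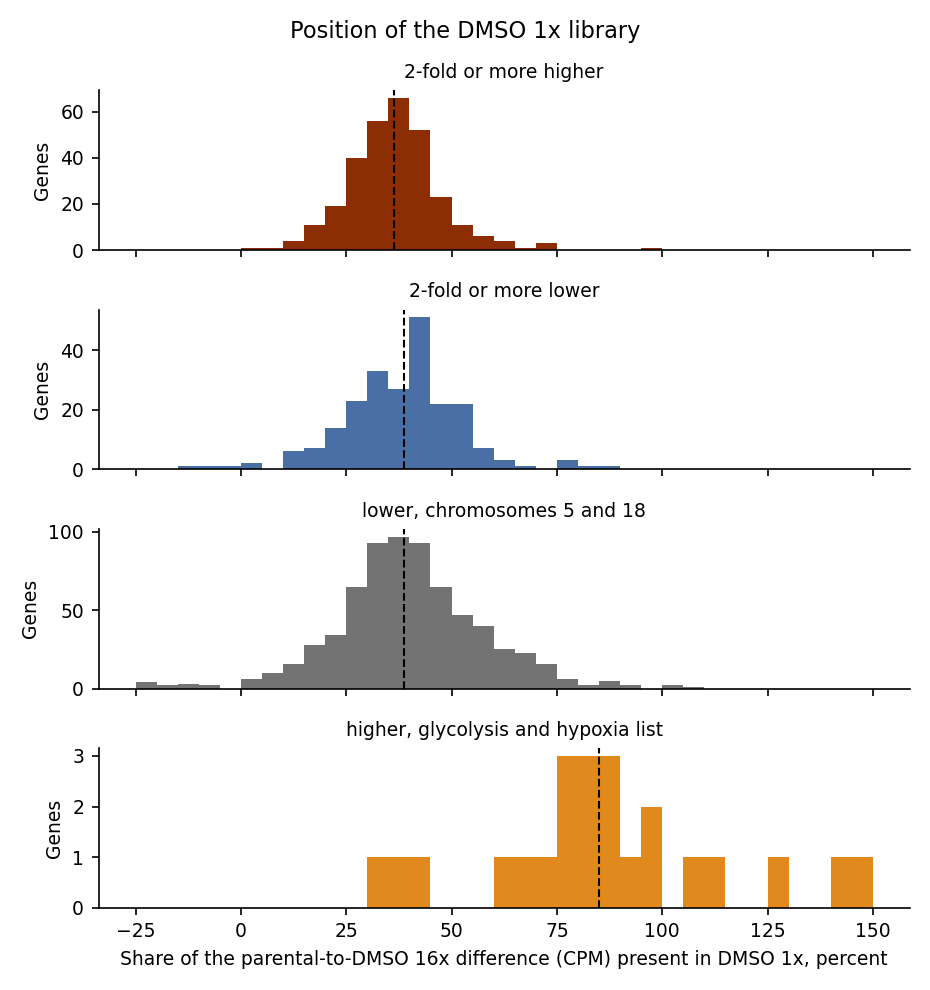
Number of genes by the share of the parental-to-DMSO 16x difference in CPM that was present in DMSO 1x, in percent, for 4 sets called in DMSO 16x with at least 5 CPM; dashed lines are medians, and values outside the axis are drawn in its end bins. The first 3 sets centre between 36% and 41%, and the glycolysis and hypoxia set centres at 84.9%.

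Most glycolysis genes called higher in DMSO 16x were already near that level in DMSO 1x. Of 33 tested genes that encode glycolytic enzymes, glucose and lactate carriers or targets induced in hypoxia, 23 were called higher in DMSO 1x (69.7%, against 3.29% of all tested genes) and none lower, with a list median of 0.43 on the log2 scale against 0 over all genes. In DMSO 16x, 24 were higher (72.7%, against 14.6% of all) and 3 lower, with a median of 0.38 against -0.01. For the 23 genes called higher in DMSO 16x with at least 5 CPM, the median share present in DMSO 1x was 84.9% (quartiles 74.1 and 97.8), and 17 of them exceeded 75%. Of the 24 genes called higher in DMSO 16x, 4 also differed between the DMSO lines. The DMSO 1x count was 15 without parental A and 13 without parental B, again with none lower. The list was written with earlier results of these data known, so its counts are a description.

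The enzymes rose by unequal amounts in DMSO 1x. The log2 change was 0.29 ± 0.05 SE for Gapdh, glyceraldehyde phosphate dehydrogenase, and 0.72 ± 0.09 SE for Tpi1, triosephosphate isomerase. Aldoc, an aldolase with little RNA (4.66 CPM in DMSO 16x), rose by 2.00. The abundant aldolase Aldoa (1160 CPM in DMSO 16x) rose by only 0.27 in DMSO 16x. Its share present in DMSO 1x was 141%, so it was higher there than in DMSO 16x. The Gapdh call was lost without parental B (adjusted p = 0.0565). Ldha, lactate dehydrogenase A, was at 1480 and 1450 CPM in the parental libraries, 2000 in DMSO 1x and 2160 in DMSO 16x (log2 0.45 ± 0.05 SE and 0.56 ± 0.05 SE, adjusted p = 0.000647 and 6.67e-06). Tpi1 went from 356 and 341 to 576 and 602 CPM, and Pfkl, the liver-type phosphofructokinase, from 145 in both to 227 and 243 CPM. Pgk1, phosphoglycerate kinase, was at 650 and 653, then 897 and 940 CPM. None of these 4 differed between the DMSO lines at the threshold in the main fit (adjusted p = 0.321, 0.801, 0.405 and 0.616). Every one of their DMSO 1x values lay above both parental libraries. Under the other fits tried, the log2 step from DMSO 1x to DMSO 16x was 0.11 to 0.13 for Ldha and 0.05 to 0.08 for Tpi1. It was 0.09 to 0.11 for Pfkl and 0.06 to 0.08 for Pgk1. Whether these small further rises passed the threshold depended on the fit. Slc2a1, the main glucose transporter, was slightly higher in DMSO 1x (111 CPM) than in DMSO 16x (108 CPM), from 71.6 and 73.0. In contrast, Slc2a3, another glucose carrier, kept rising, from 0.647 and 0.741 to 7.76 CPM in DMSO 1x and 21.9 in DMSO 16x. Its log2 step between the DMSO lines was 1.49 ± 0.33 SE (adjusted p = 0.0131). Its share present in DMSO 1x was 33.4%, and those of Hk2 and Vegfa were 35.3% and 41.1%, whereas 17 of the 23 genes exceeded 75%.

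Other members did not hold their level. Bnip3, a mitochondrial protein induced in hypoxia, went from 159 CPM in both parental libraries to 270 in DMSO 1x and back to 198 in DMSO 16x, lower than in DMSO 1x (adjusted p = 0.0026). Slc16a3, the lactate exporter MCT4, was at 0.443 and 0.478 CPM, then 3.85, then 0.75, and Egln1, a prolyl hydroxylase that senses oxygen, at 152 and 143, then 186, then 141 CPM. These are 3 of the 6 genes of the whole table that were called in DMSO 1x and called in the opposite direction from DMSO 1x to DMSO 16x; the others were Filip1l, Gas5 and Scand1. All 6 but Bnip3 lost a call of this pair when 1 parental library was left out: for Slc16a3 the adjusted p in DMSO 1x became 0.087 without parental A and 0.0953 without parental B, for Egln1 0.0784 and 0.172. The members called lower in DMSO 16x were Hk1, a hexokinase (41.8 and 38.1, 39.6, then 15.1 CPM), Car9, a carbonic anhydrase (3.07 and 3.06, 2.57, then 1.02 CPM), and Slc16a1, the monocarboxylate carrier MCT1 (521 and 522, 481, then 388 CPM).

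**Figure D5:**
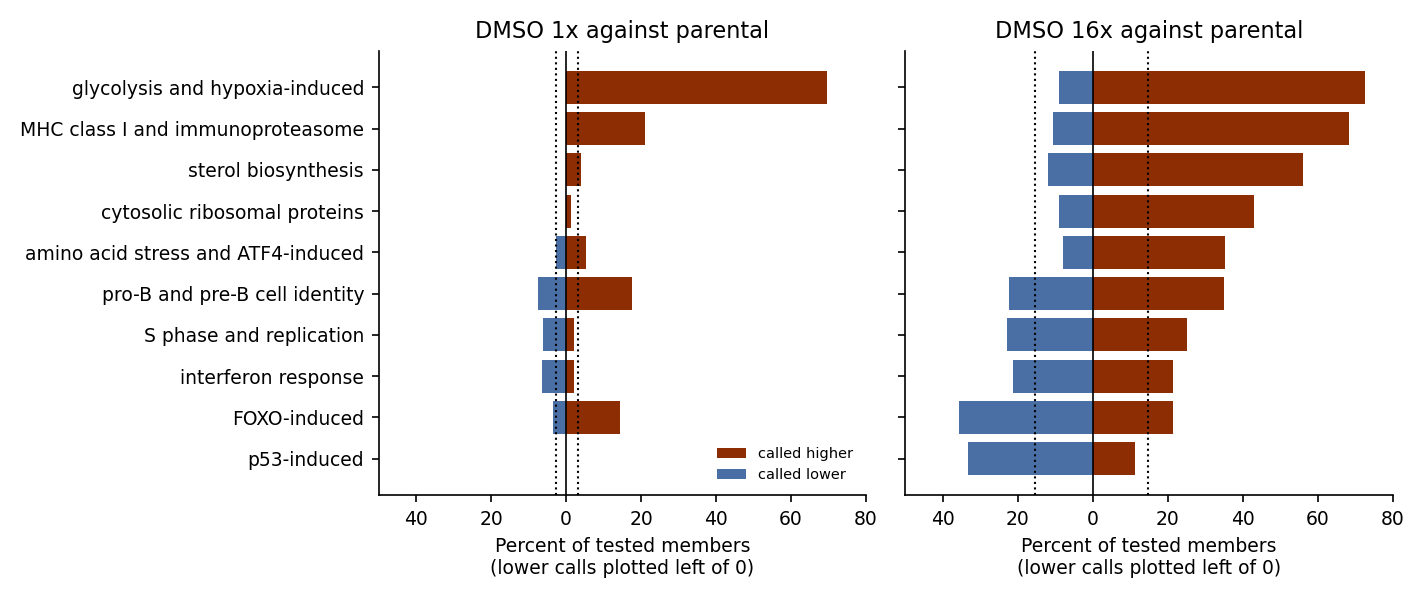
Percent of the tested members of 10 gene lists that were called higher (right of 0) or lower (left of 0) in DMSO 1x and in DMSO 16x against parental; dotted lines give the same percent over all tested genes. The glycolysis and hypoxia list reaches 69.7% higher in DMSO 1x, where the other lists stay below 25%.

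MHC class I genes, which present peptides to T cells, were mostly higher in DMSO 16x. Of 19 tested genes of the class I and immunoproteasome list, 4 were called higher in DMSO 1x (21.1%, against 3.29% of all tested genes). In DMSO 16x 13 were higher (68.4%, against 14.6% of all) and 2 lower (10.5%, against 15.5%). H2-K1, a classical class I heavy chain, was at 67.2 and 66.5 CPM, then 147 and 277 CPM (log2 1.14 ± 0.16 SE and 2.05 ± 0.15 SE, adjusted p = 0.0125 and 0.000115). H2-D1 went from 94 and 93.4 to 169 and 294 CPM, and Nlrc5, the transactivator of class I genes, from 35.2 and 37.4 to 46.3 and 75.8 CPM. Class I genes are close copies of one another, so the division of reads between H2-K1 and H2-D1 is uncertain. The 4 DMSO 1x calls were lost without parental A or without parental B (H2-K1 adjusted p = 0.0788 and 0.0911), and the DMSO 16x count then became 10. Of 47 interferon response genes 10 were higher and 10 lower in DMSO 16x (21.3% each, against 14.6% and 15.5% of all, with 6 higher and 7 lower without parental A, and 6 and 5 without parental B); the lower ones include Gbp2, a guanylate-binding GTPase (34.2 and 33.1, 23.6, then 9.91 CPM).

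B-cell precursor genes were called in both directions. Of 40 tested members, 7 were higher (17.5%, against 3.29% of all) and 3 lower (7.5%, against 2.77%) in DMSO 1x. In DMSO 16x 14 were higher (35%, against 14.6%) and 9 lower (22.5%, against 15.5%). Foxo1, a transcription factor that drives early B-cell genes, went from 276 and 273 CPM to 210 and 127 (log2 -0.38 ± 0.05 SE and -1.11 ± 0.06 SE, adjusted p = 0.00201 and 5.96e-08). Il7r, the interleukin-7 receptor and a Foxo1 target, went from 217 and 219 to 167 and 78.3 CPM, and Lef1, a Wnt pathway factor of pro-B cells, from 119 and 116 to 99.8 and 63.1 CPM. Ikzf1, the Ikaros regulator of lymphoid development, rose from 578 and 568 CPM to 754 and 1040 (adjusted p = 0.00332 and 7.1e-07). Rag1 and Dntt, which cut and diversify antigen receptor genes, had their lowest level in DMSO 16x without passing the test in the main fit. Rag1 was at 73.8 and 76.0, 56.7, then 20.3 CPM (adjusted p = 0.057 for DMSO 16x). Dntt was at 26.8 and 27.9, 19.8, then 1.74 CPM (adjusted p = 0.0502 for DMSO 16x). Under the other fits tried, the DMSO 16x log2 change was -1.9 to -1.86 for Rag1 and -4 to -3.94 for Dntt. Whether these 2 genes passed the threshold depended on the fit. Pax5 was at 149 and 153 CPM in the parental libraries, 148 in DMSO 1x and 144 in DMSO 16x. The list's DMSO 1x calls were 1 higher and 1 lower without parental A, and 1 lower without parental B; its DMSO 16x calls were 12 higher with 4 and 5 lower. Il7r and Lef1 lost their DMSO 1x calls there (adjusted p = 0.129 and 0.145 without parental A, 0.173 and 0.12 without parental B), and Ikzf1 lost it without parental B (0.0504).

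Cell cycle genes were called in both directions in DMSO 16x. Ccnd2, the cyclin D of B-cell precursors, rose from 508 and 499 CPM to 671 and 921, and Socs3, a feedback inhibitor induced by STAT signalling, from 15.5 and 16.0 to 22.8 and 39.0 CPM. Socs3 lost its DMSO 1x call (adjusted p = 0.0106) without parental A (0.0874) or parental B (0.0772). Pole2, a subunit of DNA polymerase epsilon, was at 44.7 and 45 CPM in the parental libraries, 87.2 in DMSO 1x and 200 in DMSO 16x (log2 2.16 ± 0.07 SE, adjusted p = 7.41e-10). Of the 48 tested S phase genes, 12 were higher (25%, against 14.6% of all) and 11 lower (22.9%, against 15.5%) in DMSO 16x, and 10 of the 11 lower ones lie on chromosomes 5 and 18. The count of higher S phase genes was 7 without parental A and 8 without parental B. Of 34 G2 and mitosis genes, 2 were higher (5.88%) and 5 lower (14.7%) in DMSO 16x, both below the shares over all genes.

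Many translation and sterol genes were slightly higher in DMSO 16x. Of 77 tested cytosolic ribosomal protein genes, 33 were called higher (42.9%, against 14.6% of all) and 7 lower (9.09%, against 15.5%) in DMSO 16x, and all 7 lower ones lie on chromosomes 5 and 18, among them Rpl21 at 1030 in both parental libraries, 984 and 789 CPM. The list median was 0.12 in DMSO 1x and 0.16 in DMSO 16x, and the higher calls were 18 without parental A and 15 without parental B. Of 25 tested sterol biosynthesis genes, 14 were higher (56%, against 14.6% of all) and 3 lower (12%, against 15.5%) in DMSO 16x (9 and 2 without parental A, 6 and none without parental B), such as Fdps, farnesyl diphosphate synthase, at 164 in both parental libraries, 193 and 226 CPM. Of 27 tested p53-induced genes, 3 were higher (11.1%, against 14.6% of all) and 9 lower (33.3%, against 15.5%) in DMSO 16x, with Phlda3 among the lower ones; without parental A 1 was higher and 3 lower, and without parental B 1 and 2. No p53-induced gene was called in DMSO 1x by edgeR's quasi-likelihood test, DESeq2 or limma-voom; by the first, 1 (Aen, an exonuclease) had an unadjusted p under 0.05 (0.0263).

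Further lists are read against the shares over all tested genes, 14.6% higher and 15.5% lower in DMSO 16x and 3.29% and 2.77% in DMSO 1x. Of 37 tested genes of the amino acid stress response driven by ATF4, 13 were higher (35.1%) and 3 lower (8.11%) in DMSO 16x, with 2 and 1 in DMSO 1x (1 and 0 without either parental library). Of 28 FOXO-induced genes, which normally rise when PI3K signalling is low, 6 were higher (21.4%) and 10 lower (35.7%) in DMSO 16x, with 4 and 1 in DMSO 1x (2 and 0 without either parental library). Of 70 oxidative phosphorylation genes 5 were higher (7.14%) and 9 lower (12.9%) in DMSO 16x, both below the shares over all genes, and 5 of the lower ones lie on chromosomes 5 and 18. Their 2 higher calls in DMSO 1x were lost without either parental library, and the 5 in DMSO 16x then became 2. Of 17 BCL2 family genes, which promote or block cell death, 5 were higher (29.4%) and 1 lower (5.88%) in DMSO 16x, with 3 and 1 without either parental library. Of 13 genes of mature B and plasma cells, 5 were higher (38.5%) and 2 lower (15.4%) in DMSO 16x, and the lower calls became 0 without parental A and 1 without parental B. Among the higher ones was Cr2, the complement receptor CD21, at 13.7 and 14.7 CPM in the parental libraries, 25.6 in DMSO 1x and 54.7 in DMSO 16x (adjusted p = 0.000688 for DMSO 16x).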

How the data were processed

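RNA was sequenced on Illumina TruSeq libraries, per the labels' protocols, and the deposited table holds raw read counts per gene. The submitters' processing notes name CASAVA 1.7.0, Trimmomatic 0.33, TopHat2 2.0.12, BWA 0.7.10, SAMtools, HTSeq 0.6.1, DESeq and the mm9 build; overlapping genes may share reads, as the strand setting of the counting is not given in the sources used here. Counts were tested with edgeR 4.0.16 in R 4.3.3 (robust quasi-likelihood, TMM scaling, filterByExpr with a minimum count of 10, Benjamini-Hochberg adjusted p under 0.05) in 1 fit of all 10 libraries in 5 groups. A lone DMSO library is thus assumed to vary like the replicated groups. SE is the log2 change over the root of F. DESeq2 1.42.0, limma 3.58.1, RLE scaling, no filter, and left-out libraries were alternatives. The script was tested on simulated data.

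Chromosomes come from RefSeq GRCm38.p6 by symbol (10470 genes) or synonym (1402), with 1121 genes unplaced; only chromosome and order were used with the mm9 counts. The comparison, its members and the 34 gene lists were chosen with earlier results of these data known. Genes are named by the 8 highest and 8 lowest log2 changes and the 4 largest CPM gains and losses per comparison (at least 5 CPM, no overlap between groups), the 2 smallest p of each list, the 4 smallest p of each course, and Abl1. Others named are members of the lists, or were picked after their values were seen: Cyp20a1, Exo1, Filip1l, Gas5, Hoxb13, Hoxb3, Hoxb4, Hoxb5, Ly9, Ncf1, Scand1.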

Additional observations from a re-analysis of the deposited data

How the results depend on the processing

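No gene called in a comparison changed sign in it under an alternative, among the 384 results of named genes recomputed; Filip1l, Gas5 and Scand1 in DMSO 16x and Hk1 in DMSO 1x, none of them called there, crossed 0 (log2 -0.07 to 0.08). The balance of DMSO 16x calls against parental, 1900 higher and 2012 lower, turned with RLE size factors (1966 and 1963), limma-voom (1918 and 1877), the 4 drug-free libraries alone (3553 and 3298) and without chromosomes 5 and 18 (1621 and 1354). With the 4 drug-free libraries alone, 4368 genes were called in DMSO 1x, 6851 in DMSO 16x, 4296 between the DMSO lines and 7191 in the joint test. Tested against a 2-fold change, the counts were 22, 387 and 46. Leaving out 1 library at a time gave 120 to 1393 calls for DMSO 1x, 2650 to 4605 for DMSO 16x, 891 to 1727 between the DMSO lines and 1910 to 3939 in the joint test; the lowest DMSO 1x counts were without parental B (120) and A (166), the highest without dasatinib 16x replicate A (1393) and B (1260). With the parental libraries summed into 1, DMSO 1x had 150 calls. Without chromosomes 5 and 18, an alternative chosen after seeing the data, DMSO 1x had 467, the DMSO lines differed in 589, and the test of both DMSO lines together called 1. That test called 23 genes with no filter on low counts, 1049 with DESeq2, 3482 in the 5-group fit, and 0 to 6817 with 1 library left out (6817 without DMSO 1x, 4345 without DMSO 16x). The chromosome medians in DMSO 16x were -0.46 for chromosome 5 and -0.514 for chromosome 18 with RLE size factors, and -0.496 for chromosome 18 with genes of at least 10 CPM. Leaving out 1 library gave -0.467 to -0.465 and -0.517 to -0.509. No paired analysis was possible because the DMSO libraries carry no replicate letter shared with the parental ones. With 1 library in each DMSO group, no difference here was measured in a second DMSO culture.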
